A study of Mus musculus with 96 samples.

Results

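The nuclear genes of the mitochondrial respiratory chain were described in 4 tissues (the liver, the gonadal fat, the pancreas and the striatum) of mice that received antipsychotic drugs. Members were taken by gene symbol (the Nduf genes of the A, B, C, S and V series, Sdha to Sdhd, and symbols starting with Uqcr, Cox4 to Cox8 or Atp5). The rule uses no values, but it was chosen with earlier results of these data known. It gave 93 of the 19505 genes measured. By symbol alone, 38 of these were counted with complex I and 8 as complex I assembly factors (the Ndufaf genes). Another 4 were counted with complex II, 8 with complex III, 18 with complex IV and 17 with complex V. Each of the 93 genes was measured by 1 transcript cluster of a Clariom S array, and all 93 were tested in every tissue. Female and male C57BL/6JOlaHsd mice, bought at 6 weeks of age and kept for at least 10 days before treatment, received a subcutaneous injection every day for 28 days of risperidone (1 mg/kg), olanzapine (3.5 mg/kg) or the vehicle alone, which was saline with 5% DMSO and 5% Tween 20 and also carried both drugs. Each of the 3 groups held 8 mice (4 males and 4 females), the 4 tissues came from the same 24 mice, and all were killed 1 h after the last injection. Plasma drug levels were not measured, and the groups therefore differ by dose given and not by known exposure. Values are log2 values deposited after robust multichip analysis (RMA), a background correction, quantile normalization and probe summary. A difference of 1 is a 2-fold change on that scale, which ran from 2.52 to 19.93.

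The respiratory chain passes electrons from NADH at complex I, or from succinate at complex II, through ubiquinone to complex III and on through cytochrome c to complex IV, where oxygen is reduced. Complexes I, III and IV pump protons across the inner mitochondrial membrane, and complex V, the ATP synthase, uses their return to make ATP. Most subunits are encoded in the nucleus and imported, while the core of complexes I, III, IV and V also holds subunits made from mitochondrial DNA. Some complex IV subunits exist as forms bound to particular tissues: Cox7a1 and Cox8b are known from heart, skeletal muscle and brown fat, Cox6b2, Cox7b2 and Cox8c from testis, and Cox4i2 from lung and other tissues. None of the 13 subunits encoded in mitochondrial DNA was among the genes tested, and the genes of cytochrome c1 and cytochrome c are not members by the symbol rule. Ndufa4 is counted with complex I by its symbol, although its protein is now usually placed in complex IV, and Ndufb4b is a near copy of Ndufb4, so that probes for the pair may not be separable.

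The arrays differed in how closely they could be compared. For the 93 genes, the median standard error of a drug difference was 0.127 in striatum, 0.143 in liver, 0.521 in pancreas and 0.257 in fat, while for all genes it was 0.143, 0.167, 0.292 and 0.226. In pancreas and fat the error was thus larger for the 93 genes than for the genes at large, most so in pancreas. It holds differences between mice as well as those of measurement. Over its 24 mice, the pancreas was also the tissue where mean member values spread most (7.59 to 11.03). In the adipose tissue, 4 male arrays (risperidone M4, M5 and M23 and olanzapine M9) stood apart, with 14.75 to 19.41 for the epididymal gene Lcn5 against 7.36 to 13.17 in the other 8 males and 6.78 to 9.34 in females, and 14.13 to 15.72 for the adipocyte gene Adipoq against 17.57 to 18.67 and 17.58 to 18.3. Member counts of the adipose comparisons are therefore also given without these 4 arrays. Of the other 8 males, vehicle M19 (13.17), olanzapine M25 (11.26) and risperidone M24 (10.54) were also above every female for Lcn5. The rest of the 8 lay within the female range. Leaving out the 4 arrays may thus not remove all such signal. Markers of the labelled tissues were present: hepatocyte markers averaged 19.16 to 19.45 in every liver and white adipocyte markers 11.7 to 15.77 in adipose arrays, the lowest being among those 4. In pancreas arrays, acinar cell markers averaged 12.14 to 17.71. Hepatocyte markers were also high in some of them. They averaged 15.21 in risperidone F4 (acinar 13.45), 12.135 in vehicle M19, 10.99 in vehicle M3 and 10.18 in risperidone F5. In the other pancreas arrays they averaged 6.56 to 9.56. Risperidone F4 also had the lowest median correlation with the other pancreas arrays (0.647). The pancreas comparisons kept these arrays, apart from the fits leaving out each mouse in turn. Member values lay above 19, near the top of the scale at 19.93, in 55 adipose values of 5 genes and 4 pancreas values of 1 gene. As these are whole-tissue samples, fewer cells of a type and less RNA per cell cannot be told apart.

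Promoter sequence was available for 77 of the 93 genes (RefSeq, build GRCm38.p6, 250 bases before to 50 bases after the gene start), and the stretches of genes that later results turn on are given here, 5′ to 3′ on the gene's strand and ending at the base before the start. Motifs of 4 factors known to act at respiratory chain genes were searched on both strands, and capitals mark where their letters occur: GCGCATGCG for NRF1, CCGGAAGT for GABPA, TCAAGGTCA for ERRA and AAGATGGCG for YY1. Where NRF1 letters on opposite strands overlap, the capitals cover both. Cox8b and Cox7a1 are shown as the members with the largest adipose sex difference, Uqcrh and Atp5k as broadly used subunits that were also lower in males there, Ndufa11 as the single member called between the drugs in striatum, and Atp5g3 for its ERRA match.
Cox8b, chr7:140900447-140900566, minus strand: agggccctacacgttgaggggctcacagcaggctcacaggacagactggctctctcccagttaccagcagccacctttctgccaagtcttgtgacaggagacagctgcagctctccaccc
Cox7a1, chr7:30184051-30184170, plus strand: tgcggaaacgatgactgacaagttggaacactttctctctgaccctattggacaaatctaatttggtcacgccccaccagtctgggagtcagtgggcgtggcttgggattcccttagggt
Uqcrh, chr4:116075071-116075190, minus strand: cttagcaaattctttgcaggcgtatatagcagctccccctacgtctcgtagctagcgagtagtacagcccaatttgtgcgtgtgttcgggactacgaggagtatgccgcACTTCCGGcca
Atp5k, chr5:108434400-108434519, minus strand: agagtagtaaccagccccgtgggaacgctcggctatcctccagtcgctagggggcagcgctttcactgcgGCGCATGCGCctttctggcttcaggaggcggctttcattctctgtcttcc
Ndufa11, chr17:56717642-56717761, plus strand: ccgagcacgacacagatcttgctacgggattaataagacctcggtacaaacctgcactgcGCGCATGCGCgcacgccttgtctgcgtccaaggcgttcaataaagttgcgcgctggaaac
Atp5g3, chr2:73911327-73911446, minus strand: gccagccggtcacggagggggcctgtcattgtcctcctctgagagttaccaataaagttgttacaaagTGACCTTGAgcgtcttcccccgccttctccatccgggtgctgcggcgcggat
The NRF1 letters occurred in 10 of 77 member promoters (13%) and in 1.95% of the 27025 promoters of the table, and the YY1 letters in 8 (10.4%) against 1.64%. GABPA letters were found in 5 (6.49% against 4.31%) and ERRA letters in 2 (2.6% against 0.466%). In all, 24 members held at least 1 of the 4 motifs and 53 held none. The 250 bases before the start held a median of 15 CG dinucleotides in members and 6 in all genes, while Cox8b held 1 and Cox7a1 4. These matches describe letters in a window and were not tested as binding sites.

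No member passed an adjusted p under 0.05 for either drug against vehicle in any of the 4 tissues (limma, Benjamini-Hochberg over 19505 genes). The share of all genes called was 0% in the striatum, pancreas and adipose tissue for both drugs, and 0.041% for risperidone and 0.0205% for olanzapine in the liver. At an unadjusted p under 0.05, the counts of members were 3 for risperidone and 7 for olanzapine in striatum (all genes 5.4% and 10.5%), 2 and 4 in liver (5.4% and 6.56%), 5 and 39 in pancreas (3.24% and 8.24%), and 3 and 18 in fat (9.03% and 5.46%). No member had treated mice that all lay above or all lay below the 8 vehicle mice. Of the 19505 genes, 1 to 6 lay all above and 2 to 4 all below in each comparison. A count of 0 members is therefore near the share of all genes. Both drugs were set against the same vehicle mice, so their comparisons are not independent. The plot of the mean over the 93 genes in each mouse shows the groups overlapping in each tissue, and the plot of single genes by complex shows where most members lay on 1 side of zero.

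**Figure D1:**
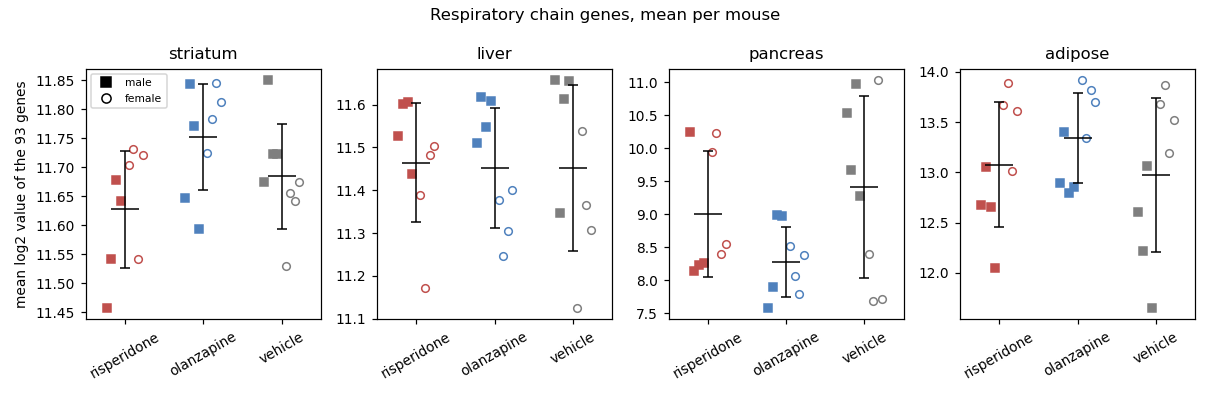
Mean log2 value of the 93 genes in each mouse (y axis), by treatment (x axis), 1 panel per tissue with its own scale; filled squares are males, open circles females, and the black mark with bar is the mean ± SD of 8 mice. All 3 groups overlap in every panel, and the adipose males (11.65 to 13.40) mostly lie under the females (13.02 to 13.92).

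**Figure D2:**
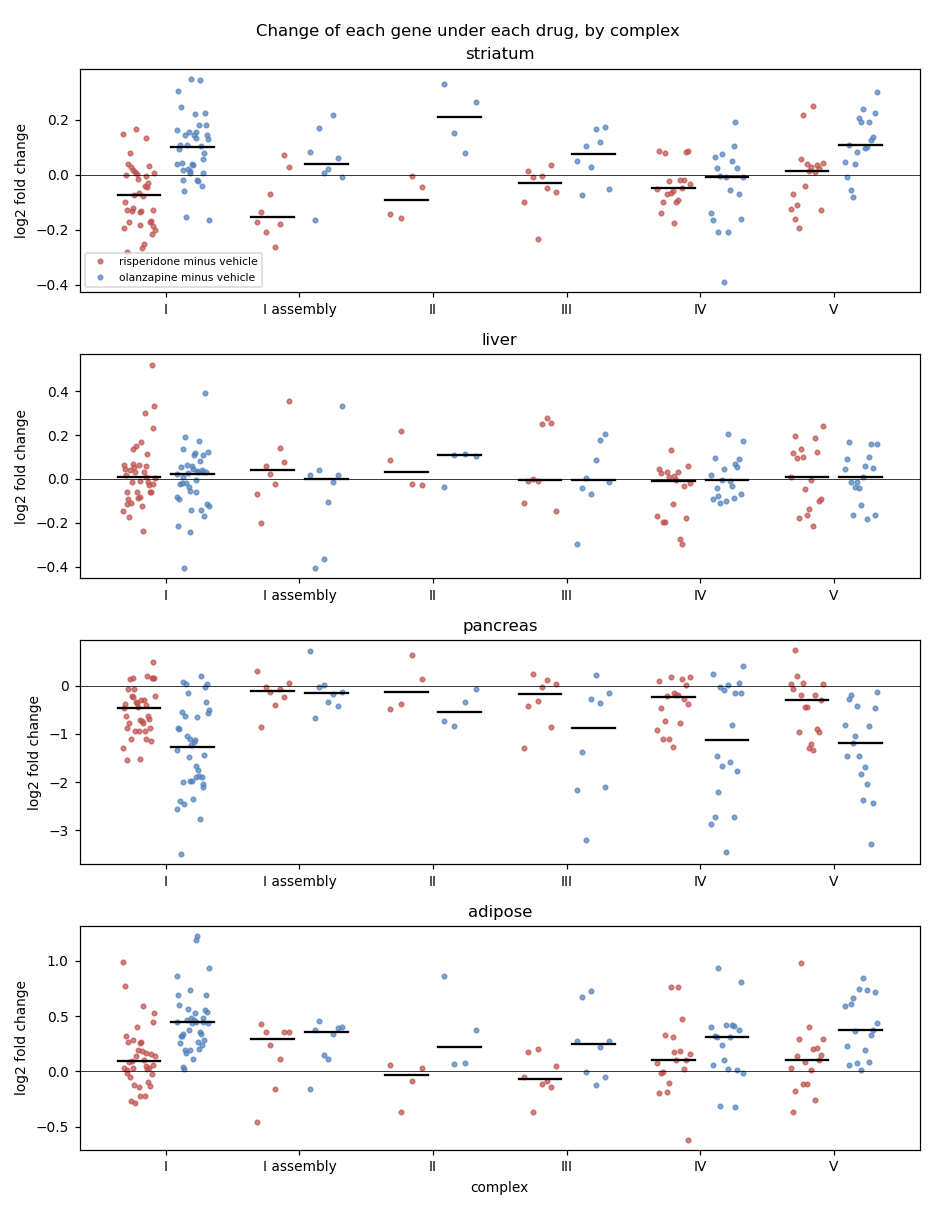
Log2 fold change of each gene against vehicle (y axis) by complex (x axis), 1 panel per tissue with its own scale; points are genes, red for risperidone and blue for olanzapine, and black lines are medians. Olanzapine medians lie below zero for each complex in the pancreas and above zero for each complex in the adipose tissue, and no gene passed the test.

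In the striatum, risperidone-treated and vehicle-treated mice had nearly the same member values. Member means per mouse were 11.46 to 11.73 under risperidone, 11.59 to 11.85 under olanzapine and 11.53 to 11.85 under vehicle. Under risperidone 64 of 93 members lay below vehicle and 29 above, with a median log2 difference of -0.05 (all genes -0.00375), and the 3 at an unadjusted p under 0.05 were all lower. These were Ndufaf5, an assembly factor of complex I, Ndufb8, a subunit of its membrane arm, and Uqcrc1, a core protein of complex III. Ndufaf5 had 9.32, 9.505 and 9.78 (lowest, median and highest) in risperidone-treated mice and 9.44, 9.705 and 10.34 in vehicle-treated mice, a difference of -0.26 ± 0.11 (SE, n = 8 each, limma adjusted p = 0.913). Ndufb8 and Uqcrc1 differed by -0.25 ± 0.11 and -0.23 ± 0.11 with the same adjusted p.

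Under olanzapine the striatal members lay mostly above vehicle, by small amounts. In this comparison 68 members were above and 25 below, with a median of 0.075 (all genes -0.00125), and complex II (0.21), complex V (0.11) and complex I (0.10) had the highest medians, against -0.01 for complex IV. At an unadjusted p under 0.05, 6 were higher and 1 lower, which is 7 of 93 beside 10.5% of all genes. Ndufc2, a complex I membrane-arm subunit, had 14.63, 15.06 and 15.31 in olanzapine-treated mice and 14.43, 14.69 and 15.13 in vehicle-treated mice (0.34 ± 0.12, limma adjusted p = 0.305). Atp5pb, the peripheral stalk subunit b of complex V, differed by 0.30 ± 0.11 (adjusted p = 0.339) and Ndufa11 by 0.31 ± 0.12 (adjusted p = 0.346). The groups overlapped for each of these genes. The testis form Cox6b2 was the member below vehicle at an unadjusted p under 0.05 (-0.39 ± 0.18, adjusted p = 0.43).

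The drugs differed from each other in the striatum more than either did from vehicle, as 4.86% of all genes were called in olanzapine minus risperidone and 19.1% had an unadjusted p under 0.05. Among the members, 1 was called and 19 had an unadjusted p under 0.05, all 19 higher under olanzapine, with a median of 0.125 over 93 members (72 above, 21 below, all genes -0.01). The called gene was Ndufa11, a membrane-arm subunit of complex I whose promoter carries NRF1 letters above. It had 11.07, 11.22 and 11.48 in olanzapine-treated mice and 10.45, 10.84 and 11.54 in risperidone-treated mice, and rose by 0.41 ± 0.12 (limma adjusted p = 0.0445, n = 8 each). The high risperidone value of 11.54 belongs to mouse F23, while the other 7 risperidone values (10.45 to 10.89) lay below every olanzapine value. The call is near the threshold: it was lost with the 16 mice fitted alone (adjusted p = 0.0676), with the animal number as a term (0.0773), with arrays centred on their median (0.0577), after quantile normalization (0.0663) and when any of 13 of these 16 mice was left out in turn (adjusted p up to 0.108), and the number of members called ran from 0 to 8, with 8 without olanzapine M9 and 4 without risperidone F23. By complex, the members at an unadjusted p under 0.05 were 10 of 38 in complex I, 3 of 8 assembly factors, 2 of 4 in complex II, 1 of 8 in complex III, 0 of 18 in complex IV and 3 of 17 in complex V. Sdha and Sdhb, the flavoprotein and iron-sulphur subunits of complex II, differed by 0.47 ± 0.17 and 0.31 ± 0.11 (adjusted p = 0.119 and 0.0909). Markers of other cells moved in the same comparison. All 8 measured markers of striatal projection neurons were called lower under olanzapine (median -1.51), their mean per mouse being 11.81 to 14.69 under olanzapine and 14.8 to 15.83 under risperidone, with 13.72 to 15.75 under vehicle. Of 7 choroid plexus markers, 2 were called lower, with means of 7.49 to 9.86 under olanzapine and 7.59 to 11.56 under risperidone. The part of these cell types in the member differences was not tested.

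In the liver, the members lay around zero for both drugs. Under risperidone 48 were above and 45 below vehicle (median 0.005, all genes -0.0025), and under olanzapine 49 were above and 44 below (median 0.01, all genes 0.01). Mean member values were 11.17 to 11.61 under risperidone, 11.25 to 11.62 under olanzapine and 11.13 to 11.66 under vehicle. For risperidone the lowest p-values belonged to Ndufb9 (0.30 ± 0.13, adjusted p = 0.837), the assembly factor Ndufaf8 (0.35 ± 0.16, adjusted p = 0.853) and the Rieske iron-sulphur protein Uqcrfs1 of complex III (0.28 ± 0.14, adjusted p = 0.924). Ndufb9 had 14.77, 15.24 and 15.39 in risperidone-treated mice and 14.62, 14.94 and 15.06 in vehicle-treated mice. For olanzapine they belonged to the assembly factors Ndufaf2 (-0.41 ± 0.15, adjusted p = 0.637) and Ndufaf4 (-0.37 ± 0.15, adjusted p = 0.688) and to Ndufa5 (-0.41 ± 0.17, adjusted p = 0.688). Ndufaf2 had 6.32, 7.24 and 7.65 in olanzapine-treated mice and 7.17, 7.56 and 7.93 in vehicle-treated mice, overlapping ranges. In olanzapine minus risperidone, 0 members were called (all genes 0.0564%) and 2 had an unadjusted p under 0.05 (all genes 7.76%).

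In the pancreas, olanzapine-treated mice had lower values than vehicle-treated mice for most members, but the spread between mice was wide and no gene of the array passed. Under olanzapine 82 members lay below vehicle and 11 above, with a median of -1.04, while the median of all genes was 0.06. After quantile normalization within the tissue the member median was -0.59, again with 82 below and 11 above. At an unadjusted p under 0.05, 38 members were lower (all genes 3.91% lower) and 1 was higher. The lower ones were 19 of 38 in complex I, 1 of 8 assembly factors, 1 of 4 in complex II, 4 of 8 in complex III, 7 of 18 in complex IV and 6 of 17 in complex V. Median differences were -1.28 for complex I, -0.15 for its assembly factors, -0.54 for complex II, -0.87 for complex III, -1.13 for complex IV and -1.18 for complex V. Member means were 7.59 to 8.99 in olanzapine-treated mice and 7.68 to 11.03 in vehicle-treated mice, so that the olanzapine values lay low in the vehicle range, or just under it.

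Of single pancreatic genes, Ndufb3, a small membrane-arm subunit of complex I, had the lowest p. It had 5.23, 6.59 and 7.35 in olanzapine-treated mice and 6.41, 8.465 and 10.37 in vehicle-treated mice (-1.97 ± 0.52, limma adjusted p = 0.572). Uqcrb, the ubiquinone-binding subunit of complex III, had 6.58, 9.23 and 12.88 in olanzapine-treated mice and 8.27, 12.92 and 16.34 in vehicle-treated mice (-3.19 ± 0.92, adjusted p = 0.572). Atp5k, subunit e of complex V, had 7.03, 7.97 and 8.9 against 7.63, 10.155 and 12.39 under vehicle (-2.03 ± 0.59, adjusted p = 0.572). The vehicle values spread more widely than the olanzapine values and reached into their range in each case. The number at an unadjusted p under 0.05, 39 in all, fell to 16 without vehicle F20, 18 without vehicle M19, and 25 without olanzapine M9 or M25, and was 22 after quantile normalization within the tissue.

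Under risperidone the pancreatic members had a median of -0.35 (24 above and 69 below vehicle, or 34 and 59 after quantile normalization, all genes 0.02). At an unadjusted p under 0.05, 3 were lower and 2 higher. Ndufaf2 differed by -0.87 ± 0.29, Sdhc, a membrane anchor of complex II, by 0.64 ± 0.25, and Atp5c1, the gamma subunit of complex V, by 0.73 ± 0.32, each with a limma adjusted p of 0.999. Sdhc had 8.95, 9.8 and 10.52 in risperidone-treated mice and 8.46, 9.035 and 9.83 in vehicle-treated mice. Between the drugs, olanzapine minus risperidone called 0 members (all genes 0%) and gave 3 at an unadjusted p under 0.05 (all genes 4.02%), and 81 of 93 differences were below zero.

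The mean of the 93 genes in a pancreas ran with that of the cytosolic ribosomal protein genes, a list added after the data had been seen. Over the 24 mice Pearson's r was 0.914 (permutation p = 1e-05, the smallest that 100000 permutations can give, adjusted 8e-05 over 8 relations) and Spearman's rho 0.943 (permutation p = 1e-05), and r was 0.87 without the 2 mice farthest from the median. Within the groups, r was 0.823 under risperidone, 0.891 under olanzapine and 0.95 under vehicle (exact permutation p = 0.00618, 0.00446 and 0.000967, n = 8 each). Both means come from the same arrays and share whatever differs between them in labelling or RNA. The ribosomal list was chosen with the data in view, and the adjustment covers only it and the acinar list. Permutations over the 24 mice also mixed the treatment groups. The p-values of these relations are therefore descriptive. Under olanzapine 24 of 60 cytosolic ribosomal protein genes were lower at an unadjusted p under 0.05 (median -1.59). With the mean of 8 acinar cell markers, r was 0.227 (permutation p = 0.285) and rho 0.315 (permutation p = 0.134) over the 24 mice, with 0.332 without the 2 farthest, and within-group r values were -0.169 under risperidone, 0.236 under olanzapine and 0.488 under vehicle. Some other mitochondrial lists had smaller olanzapine differences. Their medians were -0.03 over 37 assembly factors outside the symbol rule, -0.04 over 34 mitochondrial ribosomal proteins, -0.11 over 17 TCA cycle enzymes and -0.60 over 21 import and outer membrane proteins. Of these, 4, 4, 4 and 7 were lower at an unadjusted p under 0.05. Subunits and carriers outside the symbol rule had means per mouse of 7.50 to 8.97 under olanzapine and 7.99 to 10.87 under vehicle. The fall was thus not limited to the 93 genes.

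**Figure D3:**
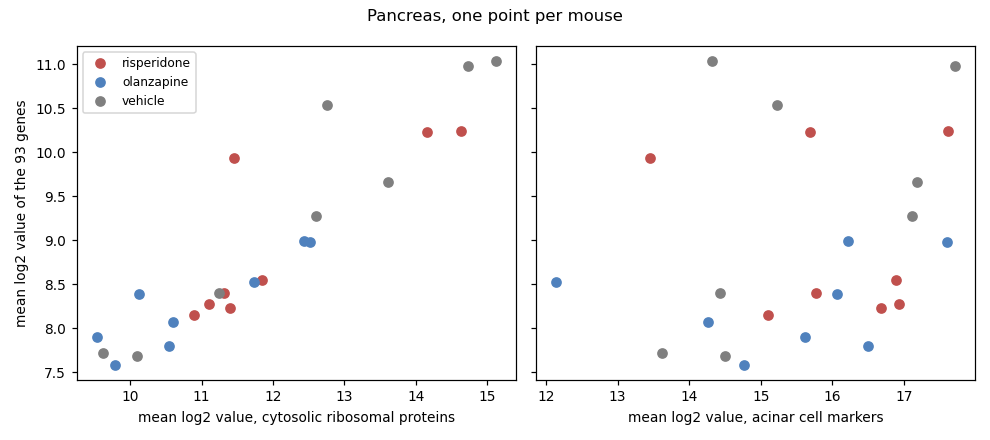
Mean log2 value of the 93 genes in each pancreas (y axis) against the mean of 60 cytosolic ribosomal protein genes (left) and of 8 acinar cell markers (right); each point is a mouse, coloured by treatment. Points rise together on the left (r = 0.914) and scatter on the right (r = 0.227).

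In the adipose tissue, olanzapine-treated mice lay above vehicle-treated mice for 86 of 93 members, with a median of 0.36 (all genes -0.02), and no member passed the test. At an unadjusted p under 0.05, 18 members were higher (all genes 2.55% higher) and 0 lower: 6 of 38 in complex I, 1 of 4 in complex II, 3 of 8 in complex III, 3 of 18 in complex IV and 5 of 17 in complex V. All 38 complex I and all 17 complex V genes were above vehicle, with medians of 0.44 and 0.37. Ndufb8 had 10.98, 12.25 and 13.55 in olanzapine-treated mice and 9.53, 11.195 and 12.28 in vehicle-treated mice (1.22 ± 0.35, limma adjusted p = 0.783). Cox6a1, the broadly used form of this complex IV subunit, had 15.76, 17.175 and 18.01 against 13.99, 16.44 and 17.26 under vehicle (0.93 ± 0.30), and Atp5k had 10.82, 12.21 and 12.86 against 9.87, 11.195 and 12.49 (0.73 ± 0.24), both with an adjusted p of 0.783. The ranges overlapped for each. The count of 18 fell to 5 without vehicle M21, 7 without olanzapine M25, 9 without vehicle F20 and 10 without vehicle M3, rose to 28 without olanzapine F9 and 30 without vehicle M19, and was 4 in a fit with no sex term. Without the 4 arrays high in epididymal genes it was 14, with a median of 0.34. After quantile normalization within the tissue 73 members lay above and 20 below, with a median of 0.15. Of 8 white and 8 brown adipocyte markers, 0 had an unadjusted p under 0.05 in this comparison.

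Risperidone-treated adipose tissue showed a median of 0.09 (62 members above and 31 below vehicle, all genes -0.04), and the direction turned after quantile normalization (37 above and 56 below, median -0.07). The lowest p-values belonged to Ndufa1 (0.99 ± 0.32, limma adjusted p = 0.453), Atp5g1, which encodes subunit c of the ATP synthase rotor (0.98 ± 0.41, adjusted p = 0.515), and Ndufb11 (0.40 ± 0.17, adjusted p = 0.517). Ndufa1 had 15.47, 17.585 and 17.97 in risperidone-treated mice and 14.84, 16.615 and 17.51 in vehicle-treated mice. Of the 8 risperidone arrays, 3 are among those high in epididymal genes, and without the 4 such arrays 0 members had an unadjusted p under 0.05, the differences of Ndufa1, Atp5g1 and Ndufb11 being 0.39 ± 0.29, -0.06 ± 0.28 and 0.10 ± 0.17. In the comparison with all mice, 6 of 8 white adipocyte markers were lower and 3 of 7 male reproductive tract markers higher at an unadjusted p under 0.05, with list means of 11.7 to 15.53 and 6.63 to 16.07 under risperidone and 14.17 to 15.77 and 6.46 to 9.77 under vehicle. Olanzapine minus risperidone called 0 members (all genes 0%), with 11 at an unadjusted p under 0.05 (all genes 9.23%), all higher under olanzapine. Without the 4 arrays high in epididymal genes, of which 1 is an olanzapine and 3 are risperidone arrays, 7 members had an unadjusted p under 0.05 (all genes 9.48%).

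A core subunit of each complex was followed in each tissue. Ndufs1, the large iron-sulphur protein of complex I, differed from vehicle under olanzapine by 0.11 ± 0.13 in striatum, -0.14 ± 0.14 in liver, 0.19 ± 0.23 in pancreas and 0.34 ± 0.17 in fat. Sdha differed by 0.33 ± 0.17, -0.04 ± 0.14, -0.74 ± 0.36 and 0.86 ± 0.35 in the same order of tissues. Uqcrc2, a core protein of complex III, differed by 0.17 ± 0.14, 0.09 ± 0.18, 0.22 ± 0.30 and -0.12 ± 0.20. Cox4i1, the common form of the regulatory subunit of complex IV, differed by -0.14 ± 0.12, 0.02 ± 0.16, -2.86 ± 1.36 and 0.40 ± 0.19. Atp5b, the catalytic beta subunit of complex V, differed by -0.01 ± 0.11, 0.09 ± 0.10, -1.45 ± 1.22 and 0.23 ± 0.29. None passed the test in any tissue, nor did any of the 8 tissue-restricted subunits (Cox4i2, Cox6a2, Cox6b2, Cox7a1, Cox7b2, Cox8b, Cox8c and Ndufa4l2). In the pancreas Cox4i1 had 6.01, 8.49 and 10.69 under olanzapine and 5.7, 11.415 and 15.15 under vehicle, while Ndufs1 had 6.46, 6.85 and 7.96 and 6.44, 6.87 and 7.27, so that members of the same samples differed widely in their spread. Ndufs1 lay near the pancreas array medians of 6.69 to 6.9, and such dim signal may show little spread.

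Across the 24 mice of a tissue, the members that varied most were Ndufs7, Ndufa2 and Sdha in the striatum (SD 0.546, 0.434 and 0.401), Ndufs7, Ndufaf7 and Ndufb10 in the liver (0.649, 0.555 and 0.534), Cox7a2, Cox4i1 and Atp5md in the pancreas (3.43, 3.12 and 3.07), and Cox8b, Cox6b2 and Cox7a1 in the adipose tissue (2.82, 1.60 and 1.58). The leading adipose genes are all complex IV forms with a restricted tissue range. In adipose tissue Cox6b2 was highest in risperidone M4 (13.73) and M5 (11.82) and olanzapine M9 (10.56), which are among the 4 arrays high in epididymal genes.

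Of the comparisons made, the sexes in adipose tissue gave the most members called. The gonadal fat pads of males and females lie at different sites, so sex and fat site cannot be told apart here. Of 93 members, 65 fell in males relative to females and 0 rose (limma adjusted p under 0.05), while 4.6% of all genes were called and 3.74% were called lower. The calls covered 30 of 38 complex I genes, 2 of 8 assembly factors, 3 of 4 in complex II, 7 of 8 in complex III, 10 of 18 in complex IV and 13 of 17 in complex V. The median difference was -0.95 over all members (all genes 0.00), -0.99 for complex I, -0.63 for its assembly factors, -1.17 for complex II, -1.11 for complex III, -0.57 for complex IV and -1.23 for complex V. Mean member values were 11.65 to 13.40 in the 12 males and 13.02 to 13.92 in the 12 females. In 8 members all males lay below all females (Atp5pb, Cox7a1, Cox7b, Ndufa10, Ndufc1, Uqcr10, Uqcrfs1 and Uqcrh), as in 0.154% of all genes.

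**Figure D4:**
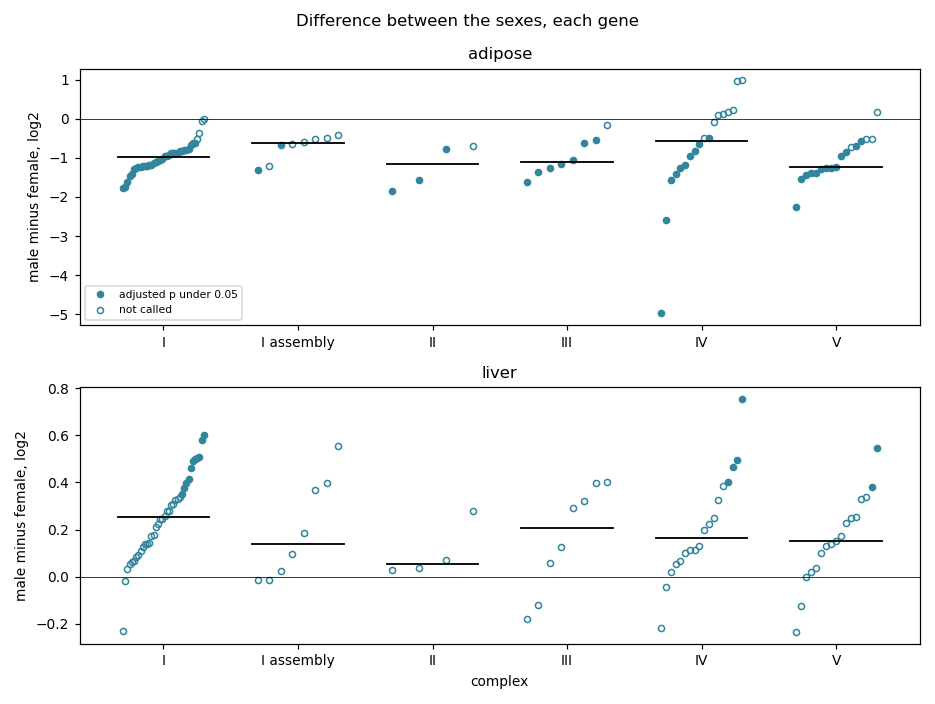
Log2 difference of males minus females for each gene (y axis), by complex (x axis), in adipose tissue (top) and liver (bottom), with separate scales; filled points passed an adjusted p under 0.05, open points did not, and black lines are medians. Adipose points lie mostly below zero (65 filled) and liver points mostly above (17 filled).

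Cox8b had the largest adipose sex difference. It had 6.83, 9.495 and 12.1 in males and 11.94, 14.385 and 15.59 in females and fell by 4.97 on the log2 scale (SE 0.44, limma adjusted p = 1.43e-07, n = 12 each), with 1 male above the lowest female. Cox7a1, which like Cox8b is known from muscle and brown fat, had 9.45, 9.965 and 10.26 in males and 10.71, 12.96 and 14.02 in females (-2.59 ± 0.35, adjusted p = 3.39e-05). Male Cox7a1 values lay within 1 unit of each other, whereas female values spread over more than 3. Both promoters shown above lacked all 4 motifs.

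The differences were not limited to tissue-restricted forms. Uqcr10, a small subunit of complex III, had 16.47, 17.04 and 17.86 in males and 17.95, 18.49 and 18.74 in females (-1.37 ± 0.14, adjusted p = 8.13e-07). Uqcrfs1 had 8.65, 9.885 and 10.35 in males and 10.49, 11.44 and 11.92 in females (-1.63 ± 0.19, adjusted p = 5.82e-06). Neither gene's groups overlapped. Ndufb9 had 13, 13.79 and 14.7 in males and 14.64, 15.025 and 15.36 in females (-1.27 ± 0.15, adjusted p = 5.82e-06), a narrow overlap. In complex II, Sdhb fell by 1.84, Sdhd by 1.57 and Sdhc by 0.77, while Sdha differed by -0.70 (adjusted p = 0.185). In complex V, Atp5o fell by 2.26 (adjusted p = 0.00112), Atp5a1 by 1.38 and Atp5b by 1.23, and in complex I Ndufa10 fell by 1.76, Ndufv1 by 1.75 and Ndufs1 by 0.78. Cox4i1 fell by 0.65 (adjusted p = 0.0132).

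Not every member followed. Uqcrc2 had 7.29, 8.085 and 8.59 in males and 7.61, 8.15 and 8.64 in females (-0.16, adjusted p = 0.74), and Ndufa7 differed by -0.00. Above zero, without passing, were Cox6b2 (0.98), Cox7b2 (0.97, adjusted p = 0.0851), Cox6a2 (0.21), Cox8c (0.17), Atp5g1 (0.17), Cox7a2l (0.11) and Cox4i2 (0.09). Among these Cox6b2 had 7.18, 7.985 and 13.73 in males and 6.89, 7.915 and 9.12 in females, nearly equal medians. Uqcrc2, Cox4i2 and Cox6a2 were dim, with medians by sex of 7.515 to 8.15 beside array medians of 7.41 to 7.65. A difference may not show at such levels, although Ndufs1, with medians of 6.535 in males and 7.325 in females, was called.

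**Figure D5:**
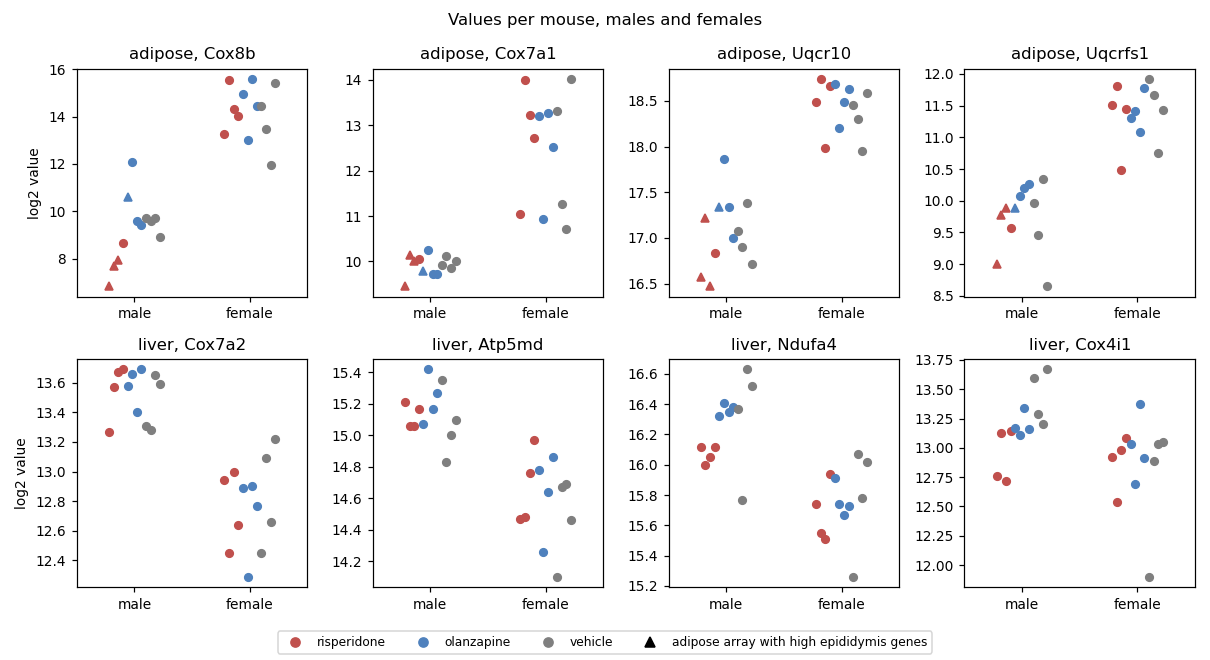
Log2 values (y axis) in 12 males and 12 females (x axis), 4 genes in adipose tissue (top) and 4 in liver (bottom), each panel with its own scale; points are mice, coloured by treatment, and triangles are the 4 adipose arrays high in epididymal genes. Cox7a1, Uqcr10 and Uqcrfs1 in adipose tissue and Cox7a2 in liver show no overlap between the sexes.

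The adipose sex difference was present without the 4 arrays high in epididymal genes, where 70 members fell and the median was -1.02, and with Cox8b at -4.49 ± 0.46. Some males kept in that fit were also above the females for Lcn5. In the 8 vehicle-treated mice alone, 8 members were called lower, 74 had an unadjusted p under 0.05 and were lower, and the median was -1.06. The share of all genes is not given for these fits, so their counts cannot be set against the whole array. Other markers moved in the same comparison. Ucp1, the uncoupling protein of brown and beige fat, had 6.02 to 7.28 in males and 7.73 to 14.99 in females (median 13.32), with no overlap. The lowest female Cox7a1 values were 10.71 in vehicle F20, 10.94 in olanzapine F9, 11.04 in risperidone F4 and 11.27 in vehicle F2, mice whose Ucp1 was 10.54, 9.54, 7.73 and 11.83. Ucp1 in the other females ran from 11.74 in olanzapine F26 to 14.99 in vehicle F21, and a relation of the 2 genes was not tested. Of 8 brown adipocyte markers, 5 were called lower in males, with list means of 6.49 to 6.96 in males and 7.43 to 9.69 in females. Skeletal muscle markers had list means of 6.48 to 6.96 in males and 6.50 to 9.27 in females, highest in risperidone F5. Of 8 white adipocyte markers, 2 were called lower, and of 7 male reproductive tract markers 2 were called higher. The part of these cell types in the member differences was not tested.

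Some genes around the respiratory chain were also called lower in male adipose tissue, where 3.74% of all genes were. Calls were lower for 5 of 8 subunits and carriers outside the symbol rule, 6 of 37 other assembly factors, 11 of 17 TCA cycle enzymes, 11 of 34 mitochondrial ribosomal proteins, 10 of 21 import and outer membrane proteins and 6 of 14 hypoxia and glycolysis genes. Of 18 regulators of mitochondrial biogenesis 2 were called lower, and of 60 cytosolic ribosomal proteins 1 was called higher.

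In the liver the sex difference ran the other way and was smaller. Of 93 members, 17 rose in males relative to females and 0 fell, while 6.23% of all genes were called and 2.4% were called higher. The median was 0.20 (82 above and 11 below), and the calls were 11 of 38 in complex I, 4 of 18 in complex IV, 2 of 17 in complex V and 0 of the other 20 genes. Cox7a2, the broadly used counterpart of Cox7a1, had 13.27, 13.585 and 13.69 in males and 12.29, 12.83 and 13.22 in females (0.76 ± 0.11, limma adjusted p = 2.08e-05), and was the single member with all males above all females, as in 0.333% of all genes. Atp5md, a small membrane subunit of complex V, had 14.83, 15.135 and 15.42 in males and 14.1, 14.655 and 14.97 in females (0.55 ± 0.10, adjusted p = 0.000526). Ndufa4 had 15.77, 16.335 and 16.63 in males and 15.26, 15.74 and 16.07 in females (0.51 ± 0.11, adjusted p = 0.00223). The other calls lay between 0.35 for Ndufb4 and 0.60 for Ndufb10 and included Ndufa2, Ndufs6, Cox5b, Cox7b and Atp5j.

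The number of liver calls was 26 after quantile normalization, 10 without risperidone F5, 11 without olanzapine M26, and 0 in the 8 vehicle-treated mice alone, where 26 members had an unadjusted p under 0.05 and the median was 0.26. Ndufb10 lost its call without risperidone F5 or without olanzapine M26 (adjusted p = 0.0514 and 0.0512). The share of all genes is not given for these settings, so their counts cannot be set against the whole array. All 6 Kupffer cell markers and all 5 macrophage markers were called lower in males, with Kupffer list means of 8.36 to 8.82 in males and 9.15 to 10.13 in females, while 0 of 8 hepatocyte markers were called. The means of these markers were 19.18 to 19.45 in males and 19.16 to 19.39 in females, near the top of the scale, where a difference may not show. The part of these cells was not tested. Calls were higher for 3 of 34 mitochondrial ribosomal proteins, 2 of 17 TCA cycle enzymes, 2 of 8 subunits and carriers outside the rule and 1 of 37 other assembly factors, beside 2.4% of all genes.

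Neither the striatum nor the pancreas had a member called between the sexes. In the striatum 0.39% of all genes were called and the member median was -0.01 (42 above and 51 below, or 59 and 34 after quantile normalization). Its lowest p-values belonged to Cox7a1 (-0.31 ± 0.10, limma adjusted p = 0.363), Cox7b2 (0.29 ± 0.14, adjusted p = 0.686) and Atp5g1 (-0.19 ± 0.09, adjusted p = 0.69), and 3 members had an unadjusted p under 0.05. In the pancreas 0.108% of all genes were called, the member median was 0.30 (75 above and 18 below), and Atp5pb (0.38 ± 0.14), Uqcrb (1.45 ± 0.75) and Cox8a (0.48 ± 0.26) had an adjusted p of 0.996, with 1 member at an unadjusted p under 0.05. The share of all genes at an unadjusted p under 0.05 is not given for these sex comparisons.

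Whether a drug difference itself differed between males and females was tested as an interaction, male effect minus female effect, and 0 members were called in the 8 tests. The share of all genes called was 0.0513% for risperidone in adipose tissue and 0% in the other 7. In the striatum 6 members had an unadjusted p under 0.05 for risperidone (all genes 5.78%) and 8 for olanzapine (all genes 6.01%), all below zero; Sdha had -0.98 ± 0.30 for risperidone (adjusted p = 0.852) and Ndufa13, a complex I subunit also known as GRIM-19, -0.72 ± 0.21 for olanzapine (adjusted p = 0.808). In the liver there were 6 (all genes 4.78%) and 0 (all genes 5.41%). In the pancreas 28 members were below zero at an unadjusted p under 0.05 for risperidone (all genes 4.96%), with a member median of -1.34, and 2 for olanzapine (all genes 4.03%); Ndufa1 had -5.71 ± 1.99 for risperidone (adjusted p = 0.98). In the adipose tissue there were 7 for risperidone (all genes 13.2%) and 4 for olanzapine (all genes 2.54%), with Atp5g1 at 2.30 ± 0.70 for risperidone (adjusted p = 0.206) and Ndufb5 at 1.77 ± 0.63 for olanzapine (adjusted p = 0.999). Of the 4 adipose males of each drug, 3 under risperidone and 1 under olanzapine are among the arrays high in epididymal genes. Without those arrays the counts were 0 for risperidone (all genes 1.21%), where the 1 male left was assumed to vary like the other groups, and 8 for olanzapine (all genes 4.45%), with Atp5g1 at 0.05 ± 0.61 for risperidone and Ndufb5 at 1.70 ± 0.60 for olanzapine. With 4 mice per sex and group, these differences carried the widest errors of the comparisons made.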

How the data were processed

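Gene expression was measured on 96 Clariom S arrays, 24 mice in each of 4 tissues. The authors deposited log2 values made by RMA and rounded to 2 decimals. Affymetrix Expression Console 1.4 is listed in the submitters' processing notes, and Babelomics 5.0 is given by the supplementary methods. A genome build, and whether all arrays were normalized together, are not given in the sources used here. Tissues were not compared with each other, since the labelling kit was WT PLUS for liver and striatum but WT Pico for fat and pancreas. The supplementary methods state that the kit was chosen by the quality and amount of RNA. Of 22206 transcript clusters, 2634 had no gene symbol. Clusters of a gene were averaged, which left 19505 genes, and 1 gene is not reported here. All 96 columns were used.

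Groups came from the sample labels. Each tissue was fitted in R 4.3.3 with limma 3.58.1 (lmFit, eBayes), with treatment and sex as terms over 24 mice and no filter on dim genes, and p-values were adjusted by Benjamini-Hochberg over all genes, with calls at an adjusted p under 0.05. The interaction came from a model of the 6 groups of treatment and sex. Correlations across mice used permutations in Python 3.11.15 with scipy 1.17.1, exact within groups of 8. The number of arrays limits the precision, as arrays have no read depth. The fit was tested on simulated data. Members, gene lists and tests were chosen with earlier results of these data known.

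Named genes were, per tissue, the called members (up to 5 a direction) or else the 3 lowest p per drug, sex and interaction, the 3 with the largest SD, 1 core subunit per complex and 8 tissue-restricted subunits. Any further member named was picked with its values in view. The alternatives were a fit without the sex term, the 16 mice compared alone, the animal number (up to 10 or above) as a term, a trended and robust variance, a filter at the 25th percentile, single clusters, median centring, quantile normalization within a tissue, and each mouse left out in turn. Added after seeing the data were the vehicle-treated mice alone and the animal number as a block for the sexes, adipose tissue without 4 arrays, and the alternatives of olanzapine minus risperidone in striatum.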

Additional observations from a re-analysis of the deposited data

Results flagged for a closer look

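Single mice far from the other 7 of their group were looked for in the named genes and the means of the complexes, by the gap to the nearest mouse over the range of the group (Dixon's test). Of 411 groups tested, 22 had such a mouse, and chance alone gives about 5%.

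In the striatum, olanzapine M9 was low in 4 measures: the mean of complex II (10.63, the others 11.095 to 11.3725), Atp5pb (13.66, others 14.07 to 14.3), Ndufs1 (11.7, others 12.42 to 12.67) and Uqcrc2 (9.9, others 10.43 to 10.84). Risperidone F23 was high in Ndufa11 (11.54, others 10.45 to 10.89) and Ndufs1 (12.92, others 11.95 to 12.34). Cox7a1 was high in risperidone F6 (8.05, others 6.86 to 7.3), Atp5g1 low in risperidone M4 (12.26, others 12.66 to 12.91) and Cox4i1 low in olanzapine M27 (12.44, others 12.93 to 13.24).

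In the liver, vehicle F1 was low in the mean of complex IV (10.2256, others 10.5661 to 10.8311) and in Cox4i1 (11.9, others 12.89 to 13.67), and olanzapine F9 was low in the mean of complex III (11.8775, others 12.08 to 12.2488). Risperidone F5 was low in Ndufb10 (7.69, others 8.75 to 8.98) and in Atp5b (16.62, others 16.82 to 17). Ndufaf8 was high in olanzapine M27 (6.52, others 5.66 to 6.02) and Ndufaf7 low in vehicle F20 (5.8, others 6.79 to 7.55).

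In the pancreas, Atp5k was high in risperidone F5 (11.47, others 7.06 to 8.83) and Cox7a1 in vehicle F20 (9.13, others 7.07 to 7.95). In the adipose tissue, risperidone M24 was low in Ndufa1 (15.47, others 17.32 to 17.97) and Ndufb11 (16.37, others 17 to 17.5). Olanzapine M9, whose array was high in epididymal genes, was high in Cox6b2 (10.56, others 7.27 to 8.65) and low in Atp5b (16.58, others 17.73 to 18.72).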

How the results depend on the processing

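No called result turned its direction under an alternative, and the count of 0 members called for each drug against vehicle stayed 0 under each alternative run. The counts at an unadjusted p under 0.05 were less stable. With the 16 mice compared alone, they were 1 for risperidone in the striatum and 2 for risperidone in the pancreas. For olanzapine in the striatum they were 4 with arrays centred on their median and 4 after quantile normalization, which also gave 2 for olanzapine in the liver, 22 for olanzapine in the pancreas and 7 for risperidone in adipose tissue. For olanzapine in adipose tissue they were 4 without the sex term and 11 with a trended and robust variance, and for risperidone there 0 without the 4 arrays high in epididymal genes. Members called between the sexes were 26 in the liver after quantile normalization, and 0 in the liver and 8 in adipose tissue in vehicle-treated mice alone, where the striatal median was 0.1275. In the striatum, olanzapine minus risperidone called 0 members with the animal number as a term, 0 with median centring, 0 after quantile normalization and 2 with a filter on dim genes. The cause of these changes was not tested. The vehicle-treated mice alone and the 16 mice are also smaller sets of mice.

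Leaving out each mouse in turn, the counts at an unadjusted p under 0.05 ran, for risperidone and olanzapine, from 1 to 6 and 3 to 11 in the striatum, 1 to 5 and 1 to 5 in the liver, 3 to 9 and 16 to 48 in the pancreas, and 1 to 7 and 5 to 30 in adipose tissue, and those of olanzapine minus risperidone in the striatum from 14 to 26. Members called between the sexes ran from 10 to 22 in the liver and 58 to 69 in adipose tissue, and those of olanzapine minus risperidone in the striatum from 0 to 8. Cox7b2, not called between the sexes in adipose tissue, was called higher in males without risperidone F6, risperidone M23 or olanzapine F9 (adjusted p = 0.0288, 0.0389 and 0.0409) and with the animal number as a term (0.0223), and Ndufaf7 in the liver without risperidone F6 or M24 (adjusted p = 0.0468 and 0.0119). For the drugs, no paired analysis was possible because their groups share no animal numbers. Males and females shared 8 numbers, which nothing in the labels ties to a litter or day, and the deviations of same-numbered mice did not all go together (correlations from -0.16 to 0.20 in the striatum, -0.05 to 0.11 in the liver, -0.30 to 0.24 in the pancreas and -0.11 to 0.50 in adipose tissue). With the number as a replicate block, 11 members were called between the sexes in the liver and 46 in adipose tissue, Ndufaf7 gained a call in the liver (adjusted p = 0.0251) and Cox4i1 lost its call in adipose tissue (adjusted p = 0.157). Signal near the top of the scale in adipose tissue and the wide spread between pancreas arrays limit what these counts can resolve.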
